A study of Rattus norvegicus with 43 samples.

Results

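The 9 genes studied here are switched on in cells by interferon, and they were followed across diets in the rat distal colon. They were chosen by symbol, as the probe sets annotated with Isg15, Mx1, Mx2, Oas1a, Ifit3, Irf7, Irf1, Ifi27 and Usp18, and each of the 9 symbols had exactly 1 probe set of its own, out of 29214 probe sets and 14506 gene symbols on the array. Diet made no difference to any of them that passed the test. They differed from rat to rat within a diet instead, and Mx1 followed the level of B cell and germinal centre genes. In most of the 9 genes 3 rats were the highest of their diet, in some by a small margin.

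Interferons are secreted proteins that warn neighbouring cells of infection. Type I and type III interferons act through receptors on the cell surface, JAK kinases and STAT and IRF transcription factors, which switch on a large set of antiviral genes, and interferon gamma from lymphocytes acts through a receptor of its own and reaches an overlapping set. In the gut, a low tone of this response is kept up by signals from the microbiota, and both the epithelium and the immune cells of lymphoid follicles carry it.

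The animals were 11-week-old Sprague Dawley rats, each giving 1 Affymetrix array of distal colon RNA, 43 arrays in all. The diets were a control (CON, n = 5), maize starch low in amylose (LAMS, n = 7), maize starch high in amylose (HAMS, n = 8), the same with butyrate esterified to it (HAMSB, n = 9), and wheat low (LAW, n = 6) or high in amylose (HAW, n = 8). The labels give codes only, so this wording comes from knowledge of the study. So does the reading that all 5 diets other than CON are Western diets, with LAMS as the maize diet without resistant starch. A comparison with CON thus sets Western diets against a control diet and is not one of starch alone. The 1 diet labelled HAM is called HAMS as in the series description. Starch high in amylose escapes digestion in the small bowel and is fermented in the colon, and the butyrylated form delivers butyrate there.

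All values are on the log2 scale, so a difference of 1 is a doubling. Diet values are means ± SD over rats, and differences are ± the standard error from limma. Markers of colon tissue were high in every diet: the mean of 16 epithelial genes lay between 10.14 and 10.62, and that of 12 smooth muscle and fibroblast genes between 10.64 and 11.18. A list of B cell and germinal centre genes varied far more, and the mean of its 13 tested genes, called the lymphoid level here, ran from 5.42 to 9.04 over the arrays. The level was 7.55 ± 1.32 in HAMS and had diet means of 6.12 to 6.57 in the other 5 diets. The array file names in the labels follow 3 styles, lower case (16 arrays), diet code first (20) and number first (7), and the labels do not say what the styles stand for. All 8 HAMS arrays have the code first, CON has 2 lower-case and 3 number-first names, and HAMSB has 5 code-first and 4 number-first names.

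Promoter sequences are shown because several of these genes moved together. A pair of short elements are textbook landmarks: the interferon-stimulated response element, through which type I interferons act, and the gamma-activated site, through which interferon gamma acts. The former was searched as GAAA, any 2 bases and GAAA again, called the ISRE-like motif here, and the latter as TTCNNNGAA, on both strands in the 250 bases before the start that the RefSeq promoter table uses. RefSeq promoters of rat assembly GRCr8 were at hand for 6 of the 9 genes, Mx1, Oas1a, Ifit3, Irf7, Irf1 and Ifi27, and not for Isg15, Mx2 and Usp18. That start is not always where the annotated gene begins. The windows of Ifit3, Ifi27 and Irf1 stop where the gene begins, whereas 43 bases of the Oas1a window, 93 of the Mx1 window and all 250 of the Irf7 window lie inside the annotated gene. For the first 3 the whole window is printed, and for Oas1a and Irf7 the 30 bases around the ISRE-like match, all 5′ to 3′ on the strand of the gene with matches to either motif in capitals.
Ifit3: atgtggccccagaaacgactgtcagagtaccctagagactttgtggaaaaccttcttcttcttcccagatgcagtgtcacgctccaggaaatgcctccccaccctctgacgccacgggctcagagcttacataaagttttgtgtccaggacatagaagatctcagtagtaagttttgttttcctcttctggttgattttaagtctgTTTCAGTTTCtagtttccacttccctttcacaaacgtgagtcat
Ifi27: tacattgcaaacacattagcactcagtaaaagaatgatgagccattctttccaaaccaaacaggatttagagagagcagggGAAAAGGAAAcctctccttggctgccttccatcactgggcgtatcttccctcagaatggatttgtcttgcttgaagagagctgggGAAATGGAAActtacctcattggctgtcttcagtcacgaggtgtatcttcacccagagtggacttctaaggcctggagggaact
Irf1: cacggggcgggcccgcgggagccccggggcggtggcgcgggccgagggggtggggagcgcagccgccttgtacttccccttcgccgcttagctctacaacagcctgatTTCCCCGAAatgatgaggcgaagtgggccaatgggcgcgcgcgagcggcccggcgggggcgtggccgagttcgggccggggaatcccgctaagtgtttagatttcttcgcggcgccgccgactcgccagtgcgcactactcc
Oas1a: ctctcggGAAATGGAAACTGAAAatcttgt
Irf7: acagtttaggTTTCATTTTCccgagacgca
They lie at chr1:241527076-241527325 (+ strand) for Ifit3, chr6:128355062-128355311 (+) for Ifi27, chr10:38417685-38417934 (+) for Irf1, chr12:41330418-41330447 (+) for Oas1a and chr1:205800073-205800102 (-) for Irf7. The ISRE-like motif occurred in 4 of the 6 windows, against 3.41% of the 33469 rat promoters searched in the same way. Oas1a had 2 overlapping matches, GAAATGGAAA beginning 41 bases and GAAACTGAAA beginning 35 bases before the table's start, both inside the annotated gene. Ifit3 had TTTCAGTTTC at 44 bases and Irf7 had TTTCATTTTC at 69 bases, each the motif on the opposite strand and the latter inside the annotated gene. Ifi27 had GAAAAGGAAA at 169 bases and GAAATGGAAA at 84 bases. TTCNNNGAA, found in 7.67% of promoters, occurred as TTCCCCGAA at 142 bases in Irf1 and as TTCCCAGAA at 199 bases in Oas1a. The Mx1 window held neither. Irf1 was the only one of the 6 with TTCNNNGAA and without the ISRE-like motif.

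Of the 9 genes, 6 passed the filter on low signal, a median of at least 4.75 over the arrays, and were tested among 10934 genes with Benjamini-Hochberg adjustment at 0.05. Mx1, Ifit3 and Usp18 had medians of 4.51, 3.89 and 3.74, close to the floor of the array, and were tested only in a fit without the filter. In the F test over the 6 diets 0 of the 6 passed with limma, while 30.7% of all genes did, and 0 of the 9 passed without the filter. The adjusted p was 0.216 for Oas1a, 0.349 for Mx2, 0.467 for Isg15, 0.534 for Irf1, 0.658 for Ifi27 and 0.973 for Irf7. At an unadjusted p of 0.05, 0 of the 9 passed as well, against 45.7% of all genes.

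No comparison between diets called a member either. Among all genes 14.1% were called in HAMS minus LAMS, 6.78% in HAMSB minus LAMS, 16.7% in HAMSB minus HAMS, 13.3% in HAW minus HAMS and 1.44% in the mean of the 5 other diets minus CON. In LAMS minus CON, HAW minus LAW and LAW minus LAMS 0% of genes were called, with 938, 212 and 192 genes at an unadjusted p below 0.05 in limma. The contrast of amylose effects, HAW minus LAW set against HAMS minus LAMS, called 0.0274% of genes. At that unadjusted level 1 of the 6 tested members passed in HAMSB minus HAMS, against 34.8% of all genes. With the members under the filter counted too, 2 of the 9 passed there. The other 8 comparisons had 0. The share of all genes was 33.7% in HAMS minus LAMS, 26.1% in HAMSB minus LAMS and 32.8% in HAW minus HAMS. In the rest it was 1.76% to 16.8%. Over the 9 members and the 9 comparisons the differences ran from -1.19 to 0.68. The intervals are wide: the unadjusted 95% bounds reached -2.39 and 1.59, both in Mx1.

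**Figure D1:**
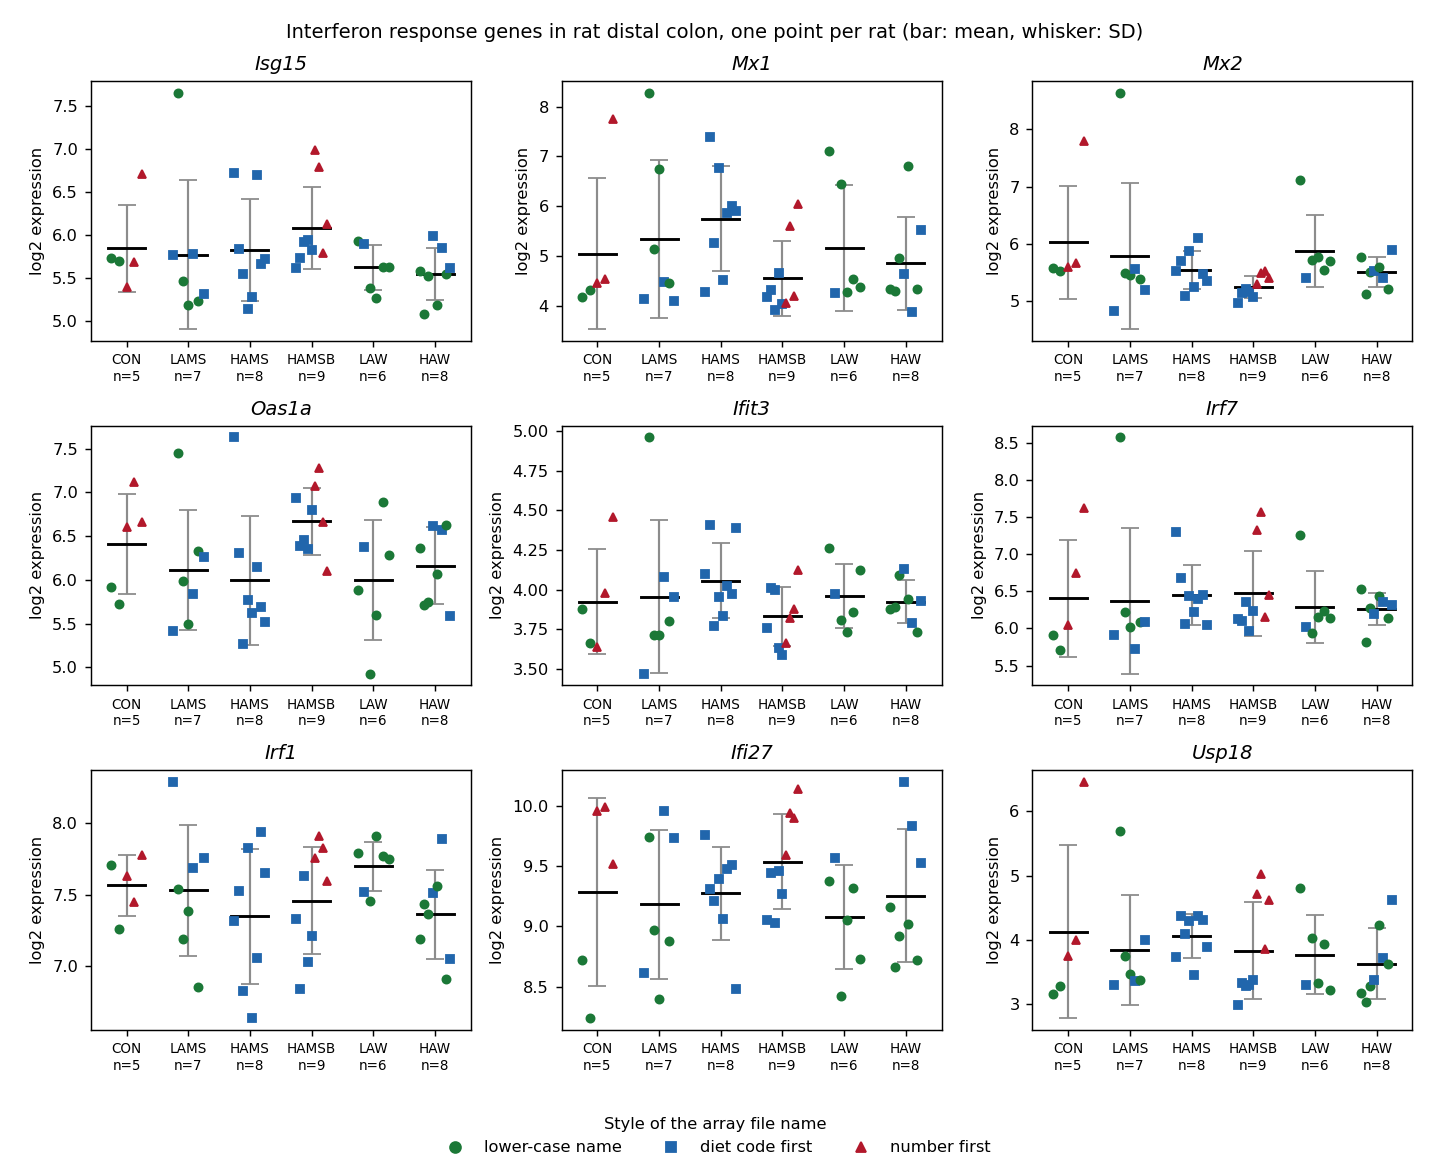
Log2 expression of the 9 genes (vertical axes) in the 6 diets (horizontal axes), with 1 point for each of 43 rats, a bar at the diet mean and a whisker of 1 SD, and the shape and colour of a point giving the style of the array file name. Diets overlap in every panel except for CON and HAMSB in Mx2, and single rats stand far above the rest, such as LAMS replicate 2 at 8.64 in Mx2.

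Among the antiviral effectors, Oas1a came nearest to a call. It encodes an oligoadenylate synthetase, a sensor of double-stranded RNA whose product activates RNase L. The 9 HAMSB rats had a lowest value of 6.10, a median of 6.66 and a highest of 7.28, with a mean of 6.67 ± 0.38. The 8 HAMS rats had a lowest value of 5.27, a median of 5.73 and a highest of 7.63, with a mean of 6.00 ± 0.74. Of the HAMS rats, 7 were at or below 6.31, a range that 1 HAMSB rat reached, and HAMS replicate 1 stood alone at 7.63, above every HAMSB rat. The difference, HAMSB minus HAMS, was 0.68 ± 0.27 with an unadjusted 95% interval of 0.13 to 1.22, an unadjusted p of 0.0168 and an adjusted p of 0.0736 in limma. Without HAMS replicate 1 it was 0.91 with an adjusted p of 0.00873, without HAMSB replicate 9 it was 0.75 (adjusted p 0.0446), and with array weights it was 0.88 (adjusted p 0.00821). With the name style as a block it was 0.48 (adjusted p 0.22), with the lymphoid level in the model 0.51 (adjusted p 0.355), and with both 0.20 (adjusted p 0.748). The call thus rests on which arrays and covariates enter. Within the code-first arrays, 5 HAMSB rats averaged 6.59 and the 8 HAMS rats 6.00.

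The other diets lay between or beside these in Oas1a. CON rats were at 5.92, 5.73, 6.6, 7.12 and 6.66, and the highest 3 of these are the number-first arrays. LAMS ran from 5.42 through a median of 5.99 to 7.45, LAW from 4.93 through 6.09 to 6.89, and HAW from 5.59 through 6.22 to 6.63. From high to low the order of means was HAMSB, CON, HAW, LAMS, HAMS and LAW, from 6.67 to 6.00, and no neighbours in it differed by more than the pooled SD of 0.59. HAMSB minus LAMS was 0.56 ± 0.28 (adjusted p 0.197 in limma).

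Mx1 and Mx2 encode dynamin-like GTPases that trap viral nucleocapsids, in the rat the former in the nucleus and the latter in the cytoplasm. Mx1 had the widest spread of the 9 genes, with a pooled within-diet SD of 1.17 that exceeded that of 99.5% of the genes tested. CON rats were at 4.17, 4.31, 4.46, 4.54 and 7.75. LAMS rats ran from 4.10 through a median of 4.47 to 8.28, and HAMS rats from 4.27 through 5.88 to 7.39. HAMS had by far the highest median, since 6 of its 8 rats were above 5. HAMSB ran from 3.91 through 4.20 to 6.04, LAW from 4.25 through 4.46 to 7.10 and HAW from 3.88 through 4.48 to 6.81. All 6 diets overlapped. The largest difference was HAMSB minus HAMS, -1.19 ± 0.53, with an unadjusted p of 0.0308 and an adjusted p of 0.125 in limma without the filter.

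In Mx2 every HAMSB rat was below every CON rat. HAMSB values went from 4.96 through a median of 5.21 to 5.52, and the CON values were 5.58, 5.53, 5.59, 5.66 and 7.79. The lowest CON rat thus lay just above the highest HAMSB rat. This was the only one of 135 pairs of diet and gene, 15 for each member, in which the 2 diets did not overlap. How often diets fail to overlap over all genes was not counted, so 1 of 135 cannot be called rare or usual. The comparison HAMSB minus CON, added after this was seen, called 0.841% of all genes and gave Mx2 -0.78 ± 0.36 with an adjusted p of 0.213 in limma. LAMS ran from 4.82 through 5.45 to 8.64, HAMS from 5.09 through 5.49 to 6.10, LAW from 5.40 through 5.72 to 7.12 and HAW from 5.13 through 5.51 to 5.89. In CON, LAMS and LAW a single rat accounted for the top of the range, replicates 5, 2 and 1.

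Ifit3 belongs to a family of proteins that bind foreign RNA ends and assemble with one another. Its values stayed between 3.47 and 4.96 over the 43 rats. LAMS replicate 2 was the highest and CON replicate 5 the next, at 4.46, and the diet means lay between 3.83 ± 0.19 in HAMSB and 4.05 ± 0.24 in HAMS. At this level the probe set is near the floor, and a small range need not mean a small change of the transcript.

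Ifi27 encodes a small membrane protein of mitochondria and is among the most strongly induced genes in human interferon responses. Here the diet means ran from 9.08 ± 0.43 in LAW to 9.54 ± 0.39 in HAMSB. CON rats were at 8.72, 8.24, 9.96, 9.99 and 9.52, and the lowest 2 are its lower-case arrays. HAMSB ran from 9.03 through 9.46 to 10.14, HAMS from 8.48 through 9.35 to 9.76 and LAMS from 8.40 through 8.97 to 9.96. Of the 9 comparisons made, HAMSB minus LAMS, at 0.35 ± 0.25, was the largest Ifi27 difference (adjusted p 0.369 in limma).

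Ifi27 values differed by the style of the array name. With diet in the model, 42.7% of all genes differed between name styles, as did 2 of the 6 tested members, Ifi27 (adjusted p 1.89e-05) and Irf7 (adjusted p 0.0375 in limma). Compared with lower-case arrays, Ifi27 was 0.69 ± 0.16 higher on code-first and 1.33 ± 0.22 higher on number-first arrays. In CON the 3 number-first rats were all above the 2 lower-case rats, and in HAMSB the 4 number-first rats, from 9.59 to 10.14, were all above the 5 code-first rats, from 9.03 to 9.46. In HAW the 3 code-first rats, from 9.53 to 10.20, were above the 5 lower-case rats, from 8.66 to 9.16. In LAW the single code-first rat, at 9.57, was above the 5 lower-case rats, from 8.42 to 9.38. In LAMS the styles overlapped, with code-first rats at 8.61, 9.73 and 9.96 and lower-case rats from 8.40 to 9.74. What the styles stand for was not tested. Within the code-first arrays, HAMSB minus HAMS was -0.02 in Ifi27 and HAMSB minus LAMS was -0.18, both of the opposite sign to the fit over all arrays.

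**Figure D2:**
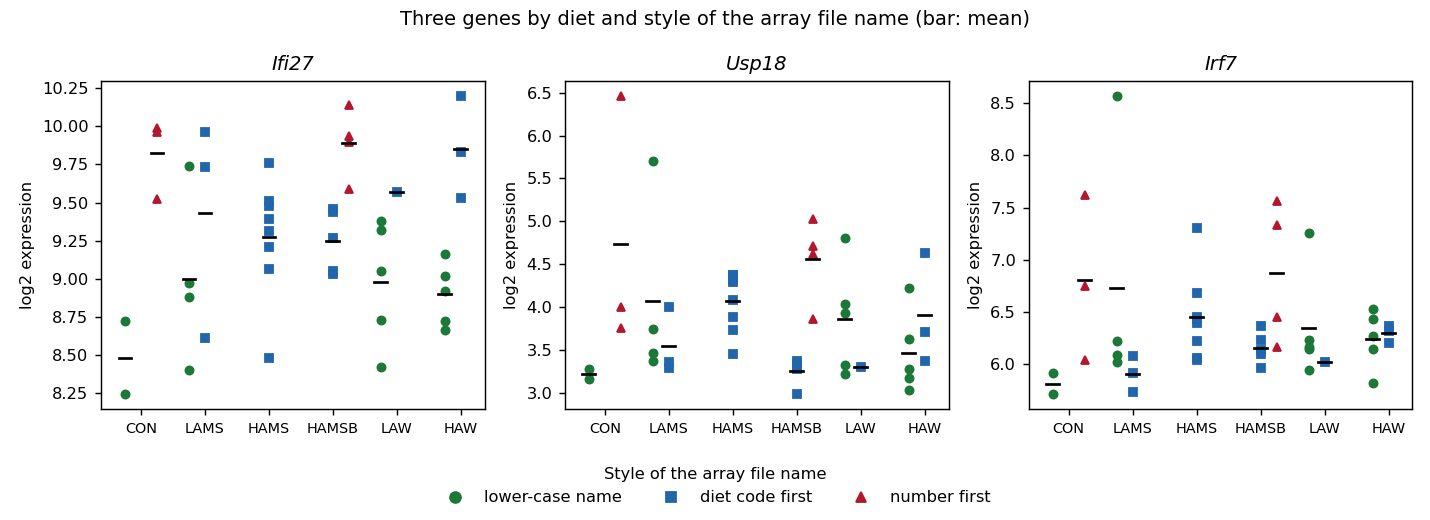
Log2 expression of Ifi27, Usp18 and Irf7 (vertical axes) by diet (horizontal axes), with arrays set side by side by the style of their file name, 1 point per rat and a bar at the mean of each set. In CON and HAMSB all number-first arrays lie above the other arrays of the diet in all 3 genes, except for 1 HAMSB array in Irf7.

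Isg15 and Usp18 act on opposite sides of protein tagging. Isg15 is a ubiquitin-like protein that is joined to other proteins during an interferon response, and Usp18 removes it and also blocks the type I interferon receptor. CON rats had Isg15 values of 5.73, 5.7, 5.39, 5.68 and 6.71. HAMSB ran from 5.61 through 5.92 to 6.98, HAMS from 5.14 through 5.69 to 6.72 and LAMS from 5.19 through 5.46 to 7.65. Most rats of each diet lay within a narrow band, and 1 or 2 rats in 4 of the diets stood above it. The wheat diets had no such rat, with LAW at 5.27 to 5.93 and HAW at 5.08 to 5.99. HAMSB minus LAMS was 0.31 ± 0.26 (adjusted p 0.451 in limma).

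Usp18 had a within-diet SD of 0.75, larger than that of 98.0% of tested genes, although its median was under the filter. CON rats were at 3.17, 3.28, 3.76, 4.0 and 6.46. HAMSB ran from 2.99 through 3.38 to 5.03, with the 4 number-first rats at 3.87 or above and the 5 code-first rats at 3.38 or below. HAMS ran from 3.46 through 4.19 to 4.38 and LAMS from 3.30 through 3.47 to 5.7. The name style was called for Usp18 as well, in the fit without the filter (adjusted p 0.00377 in limma), with number-first arrays 1.33 ± 0.37 above lower-case arrays and code-first arrays at -0.07 ± 0.27. Within code-first arrays HAMSB minus HAMS was -0.81, against -0.23 ± 0.34 over all arrays.

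The transcription factors Irf7 and Irf1 stand at different points of the response. Irf7 drives the second wave of type I interferon production and is itself induced by interferon, and Irf1 is induced by interferon gamma and by many other signals and activates antigen presentation genes. Irf7 had the smallest share of variance between diets, 2.1%, and diet means of 6.26 ± 0.22 to 6.48 ± 0.57. CON rats were at 5.91, 5.71, 6.04, 6.75 and 7.62, LAMS ran from 5.73 through 6.08 to 8.57, HAMS from 6.04 through 6.41 to 7.30 and HAMSB from 5.96 through 6.23 to 7.56. The high rats were CON replicate 5, LAMS replicate 2, HAMS replicate 1, HAMSB replicates 6 and 7, and LAW replicate 1 at 7.26. Number-first arrays were 0.65 ± 0.32 above lower-case arrays.

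Irf1 values overlapped in every pair of diets, with means from 7.35 ± 0.47 in HAMS to 7.70 ± 0.17 in LAW. CON rats were at 7.71, 7.26, 7.63, 7.45 and 7.78. LAMS rats ran from 6.86 through 7.54 to 8.29, and LAW rats from 7.46 through 7.76 to 7.91. HAW minus LAW was -0.33 ± 0.19, the smallest unadjusted p of this gene, 0.0853, and an adjusted p of 1 in limma.

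**Figure D3:**
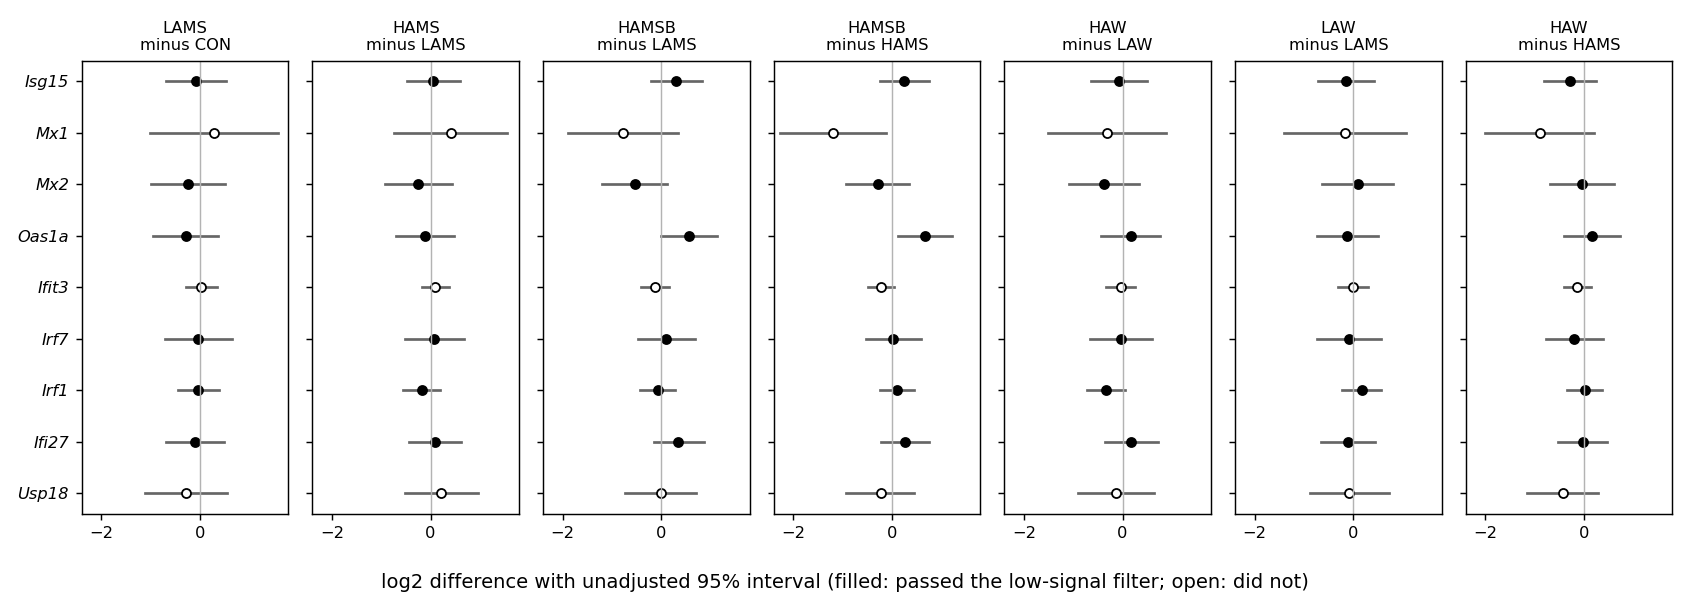
Log2 differences between diets (horizontal axes) for the 9 genes (rows) in 7 comparisons (panels), as points with unadjusted 95% intervals from limma; filled points passed the filter on low signal. Of the 63 intervals, those of Oas1a (0.13 to 1.22) and Mx1 (-2.27 to -0.12) in HAMSB minus HAMS leave out 0.

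Set against other genes, the members varied much within diets and little between them. The share of a gene's variance that lay between diets was 18.0% for Oas1a, 14.1% for Mx2, 12.0% for Mx1, 11.7% for Isg15, 10.7% for Irf1, 8.31% for Ifi27, 7.18% for Ifit3, 5.32% for Usp18 and 2.1% for Irf7. All 9 were below the median of the genes tested, 23.3%. The within-diet SD was 0.68 for Mx2, 0.60 for Irf7, 0.59 for Oas1a, 0.54 for Isg15, 0.52 for Ifi27, 0.36 for Irf1 and 0.28 for Ifit3, against a median of 0.24. For Mx2, Irf7, Oas1a, Isg15 and Ifi27 it exceeded that of 96.0% to 97.6% of the genes tested.

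A set of 3 rats stood out in several genes at once. LAMS replicate 2 was the highest rat of its diet in Isg15, Mx1, Mx2, Oas1a, Ifit3, Irf7 and Usp18, at 7.65, 8.28, 8.64, 7.45, 4.96, 8.57 and 5.7. CON replicate 5 was the highest of its diet in Isg15, Mx1, Mx2, Ifit3, Irf7, Irf1 and Usp18, at 6.71, 7.75, 7.79, 4.46, 7.62, 7.78 and 6.46, and not in Oas1a or Ifi27. LAW replicate 1 was the highest of its diet in Isg15, Mx1, Mx2, Ifit3, Irf7 and Usp18, at 5.93, 7.10, 7.12, 4.26, 7.26 and 4.81. The lymphoid level of these 3 rats was 7.89, 7.94 and 8.44, all above the mean of their diet. LAMS replicate 4 and LAW replicate 3 had similar levels, 8.45 and 8.36, and Mx1 at 6.75 and 6.45. Their Mx2, at 5.45 and 5.72, and Irf7, at 6.02 and 5.94, were not raised. A different set of rats was high in Isg15, Oas1a and Irf7 with an ordinary Mx2. In HAMS replicate 1 these 3 genes were at 6.72, 7.63 and 7.30 and Mx2 at 5.52. In HAMSB replicate 6 they were at 6.98, 7.07 and 7.33 and Mx2 at 5.30, and in HAMSB replicate 7 at 6.79, 7.28 and 7.56 with Mx2 at 5.49. Their lymphoid levels were 5.42, 5.68 and 7.52.

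**Figure D4:**
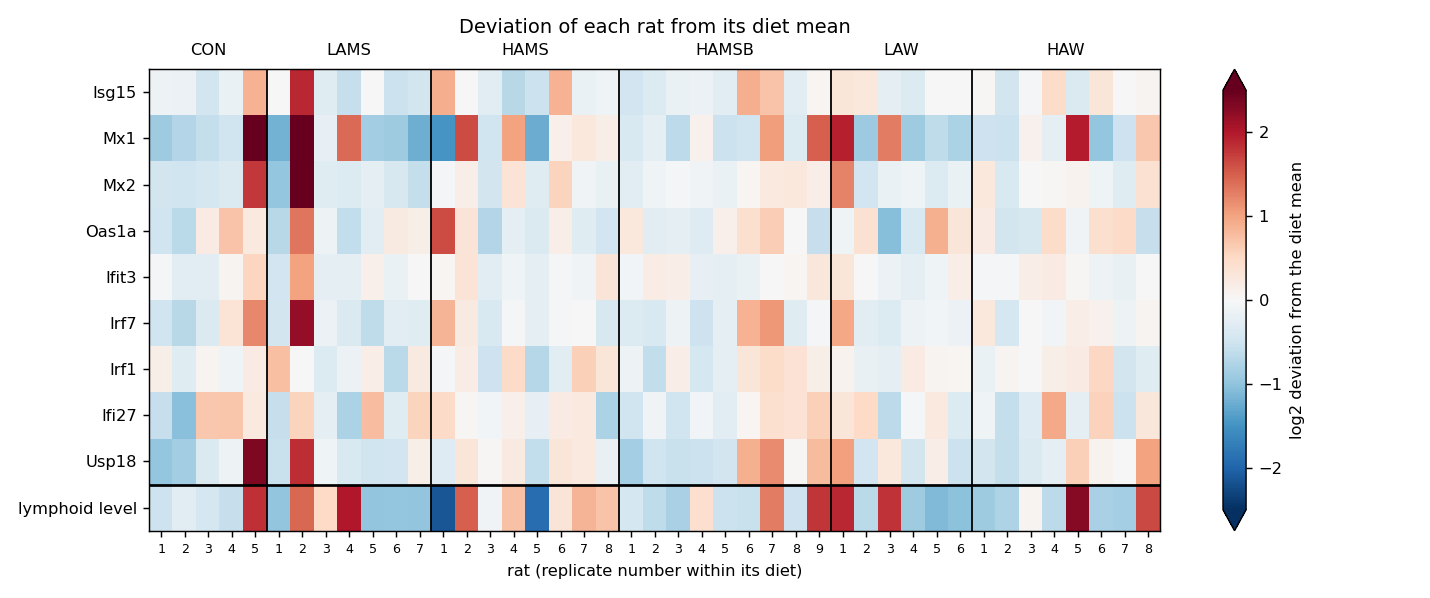
Log2 deviation of each of 43 rats (columns, by diet and replicate number) from its diet mean, for the 9 genes and the lymphoid level (rows), on a colour scale that ends at -2.5 and 2.5. LAMS replicate 2, CON replicate 5 and LAW replicate 1 are red across Mx1, Mx2, Irf7 and Usp18, and the Mx1 row resembles the lymphoid row.

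Many of the genes moved together from rat to rat. How often pairs of other genes do so was not counted, so the counts of pairs below have no background. With diet in the model, 53.3% of all genes followed the lymphoid level in limma. Over the 43 rats and after subtracting diet means, 20 of the 36 pairs of members were correlated at an adjusted p below 0.05 (permutation within diets, 100000 draws, adjusted over the pairs). The highest were Mx2 with Irf7 (r 0.82, rho 0.72, adjusted p 0.000514), Isg15 with Irf7 (0.79, rho 0.54, adjusted p 0.000432), Irf7 with Usp18 (0.79, rho 0.71, adjusted p 0.00012), Mx2 with Ifit3 (0.78, rho 0.55, adjusted p 0.0009) and Mx2 with Usp18 (0.78, rho 0.64, adjusted p 0.00012). Without the 2 rats farthest from the Irf7 median, Mx2 with Irf7 was at 0.61 and Isg15 with Irf7 at 0.63. Irf1 stood apart: 0 of its 8 pairs passed by permutation, with r of 0.08 to 0.26, whereas the 28 pairs without Irf1 had a median r of 0.57. At an unadjusted p of 0.05 none of the Irf1 pairs passed by r, and the pair with Usp18 did by rho (rho 0.31, permutation p 0.0454, adjusted 0.0711).

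Much of this rests on the 3 rats named above. Without them, an alternative chosen after their values were seen, 11 of the 36 pairs passed by permutation over the 40 other rats, and the 28 pairs without Irf1 had a median r of 0.32. The pairs that passed were all 6 pairs among Isg15, Oas1a, Irf7 and Ifi27, all 3 pairs among Mx1, Mx2 and Usp18, and Usp18 with Irf7 and with Ifi27. Oas1a with Irf7 was at 0.63 (adjusted p 0.0018 by permutation), Isg15 with Irf7 at 0.59 (0.0132), Oas1a with Ifi27 at 0.50 (0.0132) and Isg15 with Oas1a at 0.49 (0.0157). Mx1 with Usp18 was at 0.55 (adjusted p 0.0036 by permutation), Mx2 with Usp18 at 0.48 (0.0121) and Mx1 with Mx2 at 0.47 (0.04). Between the sets Mx1 with Oas1a was at -0.33 (0.137), Mx1 with Irf7 at 0.10 (0.654) and Mx1 with Isg15 at -0.17 (0.542). Usp18 with Irf7 was at 0.57 (0.0121). Ifit3 was in no pair that passed without those rats, and its pair with Mx2 was at 0.32 (0.175).

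These pairs were taken within diets only, while the name style goes with the level of several members. With rats compared and permuted within both diet and name style, added after seeing the data, 14 of the 36 pairs passed over all rats and 3 without the 3 high rats. Those 3 were Oas1a with Irf7 (r 0.66, adjusted p 0.0036 by permutation), Mx1 with Usp18 (0.62, 0.0036) and Isg15 with Oas1a (0.57, 0.0324). Ifi27 with Usp18, both higher on number-first arrays, went from 0.41 over all rats to 0.20 (adjusted p 0.362), and to 0.06 without the 3 rats. Irf1 was again in 0 of the pairs that passed by permutation.

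Mx1 followed the lymphoid level. Its deviations from diet means correlated with those of the lymphoid level at r 0.92 and rho 0.91 over 43 rats, with a permutation p of 1e-05, the smallest that 100000 draws can give, and an adjusted p of 4.5e-05 over the 9 members. The correlation was 0.91 without the 2 rats farthest from the median level, 0.91, 0.92 and 0.97 within the lower-case, code-first and number-first arrays, and 0.95 without the 3 high rats. Usp18 had r 0.65 (rho 0.57, adjusted p 4.5e-05 by permutation) and Mx2 r 0.50 (rho 0.47, adjusted p 0.00399), or 0.57 and 0.41 without the 3 rats. With diet and name style both subtracted, Mx2 was at 0.42 with an adjusted p of 0.0664.

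The lymphoid level itself was bunched, with 25 rats from 5.42 to 5.90 and 18 rats spread from 6.41 to 9.04. The 25 rats below a level of 6, a value chosen after seeing the data, had Mx1 between 3.88 and 4.63, and the 18 rats above it between 4.65 and 8.28, so that the sets did not overlap. Within the 18 rats Mx1 correlated with the level at r 0.68, Usp18 at 0.30 and Mx2 at 0.16. Diet means were not subtracted for these values, so differences between diets enter them. In the 25 rats Mx1 lay under the filter on low signal and the level within a narrow range, so that a relation could not be read there. HAMS had 6 of its 8 rats in the upper set, HAMSB 3 of 9, LAMS 3 of 7, HAW 3 of 8, LAW 2 of 6 and CON 1 of 5. The high Mx1 median of HAMS went with its high lymphoid level; the part of the level in the Mx1 difference was not tested separately. In whole tissue, more lymphoid cells and more RNA per cell cannot be told apart.

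**Figure D5:**
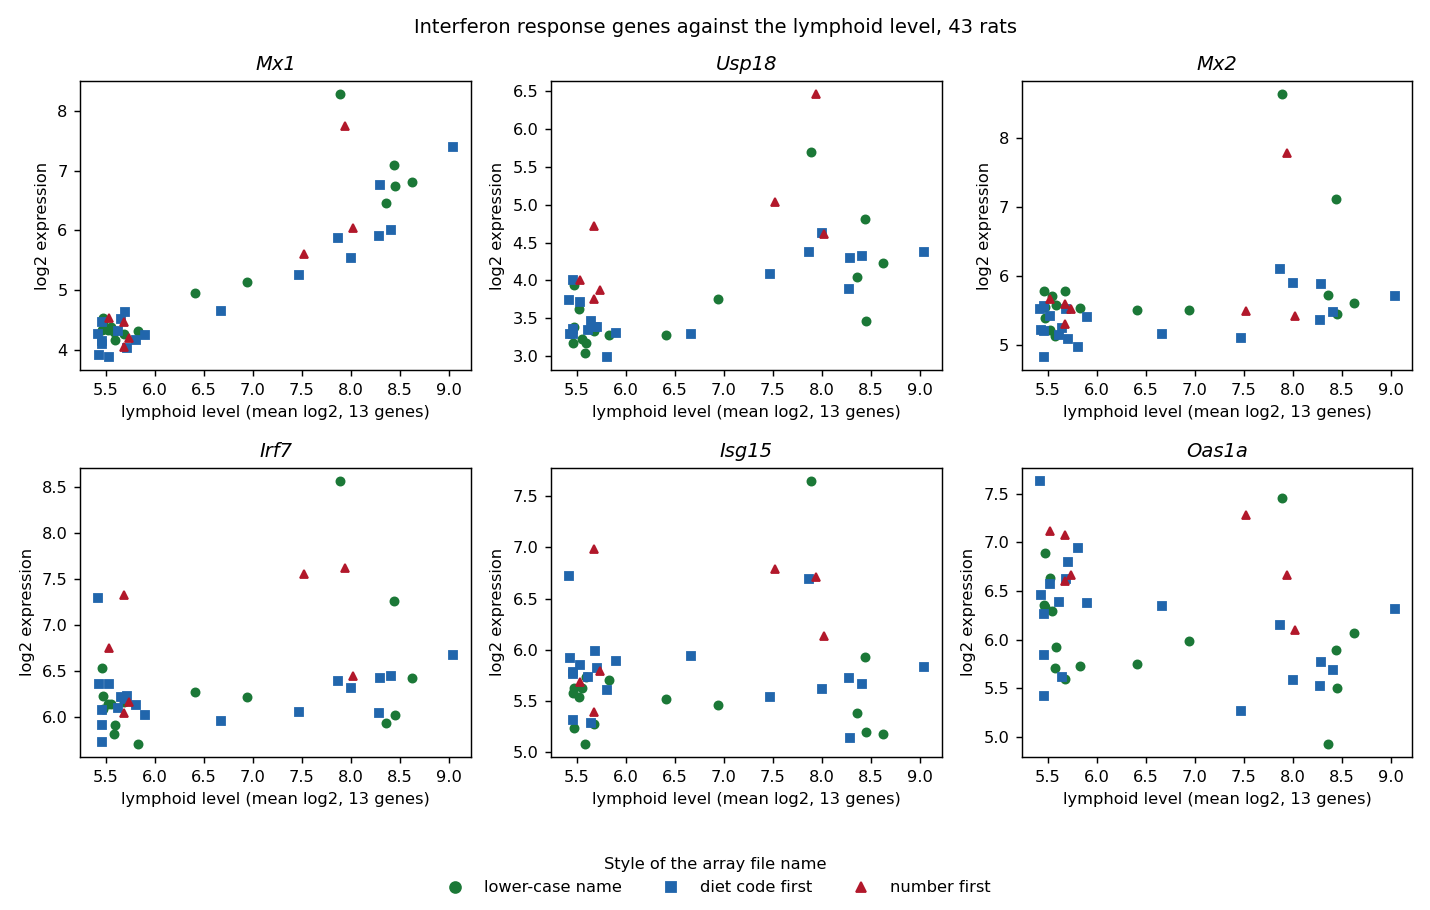
Log2 expression of 6 genes (vertical axes) against the lymphoid level, the mean log2 value of 13 B cell and germinal centre genes (horizontal axes), with 1 point for each of 43 rats marked by name style. Mx1 stays between 3.88 and 4.63 below a level of 6 and climbs to 8.28 above it, while Isg15, Irf7 and Oas1a have high rats on both sides.

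The other members followed the level less. Ifit3 had r 0.37 (rho 0.21, adjusted p 0.0502 by permutation), Irf7 0.33 (rho 0.24, 0.0563), Oas1a -0.27 (rho -0.27, 0.18), Isg15 0.15 (rho 0.05, 0.431), Irf1 0.15 (rho 0.08, 0.431) and Ifi27 -0.03 (rho -0.03, 0.869). Without the 3 high rats Irf7 was at 0.03 and Oas1a at -0.45. Taking the level out of both genes raised the correlation of Mx1 with Oas1a from -0.02 to 0.59 over the 43 rats. The latter value was not computed without the 3 high rats. Without them, and with the level left in, the pair was at -0.33. In limma with diet in the model, the level was called for 53.3% of all genes and for 2 of the 6 tested members, Mx2 (0.28 per unit of the level, adjusted p 0.00127) and Irf7 (0.17, adjusted p 0.0472). In the fit without the filter it was called for Mx1 (0.88 per unit, adjusted p 1.67e-17), Usp18 (0.40, adjusted p 9e-06) and Ifit3 (0.08, adjusted p 0.045). The spread of values on an array, its interquartile range, was called for 50.9% of all genes and for 0 of the 9 members (0 at an unadjusted p of 0.05 too, in limma).

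Genes outside the list whose deviations were most like those of the 9 members, by mean Pearson r over the 43 rats, were Rtp4 (0.64), Dhx58 (0.62), RT1-S3 (0.58), Oasl2 (0.58), Irf9 (0.57), Herc6 (0.57), Oas3 (0.56), Igtp (0.54), Ifi44l (0.52) and Slfn2 (0.51). Of these 10, 8 are in the interferon lists used here, and RT1-S3 and Slfn2 are not. The ranking was taken within diets only, with the high rats included and the name style left in. Irf9, Herc6, Igtp, Ifi44l and Slfn2 correlated with the lymphoid level at 0.64 to 0.78, and the rest of the 10 at 0.32 to 0.57. For Mx1 the nearest genes were Ly6c, Zbp1 and Ly6e, each at 0.94, and for Usp18 the nearest was Zbp1 at 0.80. Isg15 was nearest to Dhx58 (0.83), Irf7 to Oasl2 (0.87), Mx2 to Irf7 (0.82), Ifit3 to Mx2 (0.78) and Oas1a to Ube2l6 (0.70), the conjugating enzyme of ISG15. Irf1 was nearest to Zfp217 (0.86), Hsdl1 (0.81) and Nrarp (0.78), none of them in the interferon lists. Ifi27 was nearest to Rpl10 (0.68), Hmgn2 (0.67) and Ifi27l2b (0.66).

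The rest of the pathway was described through 9 lists with 102 tested genes, the 9 members left out. In the F test 15 of the 102, or 14.7%, passed, against 30.7% of all genes. HAMS minus LAMS called 6, 3 of them higher, or 5.88% against 14.1% of all genes, of which 15.3% were higher. HAMSB minus LAMS called 3, 2 of them higher, or 2.94% against 6.78% with 32.3% higher. HAMSB minus HAMS called 15, 9 of them higher, or 14.7% against 16.7% with 85.1% higher. HAW minus HAMS called 8, 5 of them higher, or 7.84% against 13.3% with 82.0% higher. In the main fit the share of the lists did not exceed that of all genes in any of these 4 comparisons. Under some other settings it did. In HAMSB minus HAMS 44 of the 102 were called against 3334 of all 10934 genes with the name style as a block. With array weights 43 were called there against 3791. The other 5 comparisons called 0 in the main limma fit. Of the 102, 1 was at an unadjusted p below 0.05 in LAMS minus CON, 3 in the mean of the 5 diets minus CON, 0 in HAW minus LAW, 3 in LAW minus LAMS and 15 in the contrast of the amylose effects. At that level 8.58%, 16.8%, 1.94%, 1.76% and 15.3% of all genes passed in these 5, so that the 15 of the contrast are near the background. The median difference of the 102 genes was 0.06 in HAMS minus LAMS and -0.13 in HAMSB minus HAMS, where that of all genes was -0.08 and 0.07. The calls in 4 comparisons share the HAMS or LAMS rats and are not independent of one another.

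Of the 4 tested receptors and 2 tested ligands 0 were called in any comparison in limma. At an unadjusted p below 0.05 Ifna4 passed in HAMS minus LAMS (0.28 ± 0.12, adjusted p 0.0951) and Ifnar1 in HAMSB minus HAMS (-0.47 ± 0.19, adjusted p 0.0754). Among the regulatory factors, Irf2, which competes with Irf1 for DNA, was at 8.41 ± 0.38 in HAMS and at 7.86 ± 0.22 to 8.18 ± 0.11 in the other diets. It was higher in HAMS than in LAMS (0.53 ± 0.13, adjusted p 0.0119 in limma) and lower in HAMSB than in HAMS (-0.55 ± 0.12, adjusted p 0.00402). Irf8, a factor of myeloid and B cells, was lower in HAMSB than in HAMS (-0.82 ± 0.22, adjusted p 0.0112), and Irf3, the constitutive partner of Irf7, was lower in HAMS than in LAMS (-0.39 ± 0.13, adjusted p 0.0433). The Irf8 difference was -0.24 (adjusted p 0.126) with name style and lymphoid level in the model. The Irf3 call was lost with the name style as a block (adjusted p 0.255) and without any 1 of 10 rats.

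Among the antiviral effectors, called in HAMSB minus HAMS were 6 of 32 tested genes, 5 higher and 1 lower, which is near the 16.7% of all genes called there and their split of 1550 higher to 271 lower. Of these, 4 were named by the rule. The membrane proteins Ifitm1, Ifitm2 and Ifitm3, which hinder the entry of viruses into cells, were higher by 0.40 ± 0.12, 0.67 ± 0.20 and 0.52 ± 0.12 (adjusted p 0.0237, 0.0178 and 0.00434 in limma). Oasl was higher by 0.71 ± 0.21 (adjusted p 0.0215 in limma). The 3 Ifitm genes are close relatives, and probes of one may read another. Ifitm3 was at 8.45 ± 0.31 in HAMS, lower than in LAMS (-0.55 ± 0.13, adjusted p 0.00881), and at 8.97 ± 0.23 in HAMSB. Ifitm1 was higher in HAMSB than in LAMS too (0.49 ± 0.13, adjusted p 0.0208). Bst2, the tether that holds virus particles to the cell, was higher in HAMS than in LAMS (0.54 ± 0.16, adjusted p 0.0262). The Oasl call was lost with the name style as a block (0.51, adjusted p 0.0937) and without HAMSB replicate 6 (adjusted p 0.0528). With the lymphoid level it was lost too (adjusted p 0.0508), although the difference, 0.76, was no smaller. The Ifitm2 call was lost with the lymphoid level (0.46, adjusted p 0.163), and the Ifitm1 calls were lost without LAMS replicate 2, HAMSB replicate 5, HAMS replicate 4 or HAMS replicate 6.

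Of the sensing genes, Mavs, the adaptor of RIG-I-like receptors on mitochondria, was at 6.98 ± 0.18 in HAMS. It was lower there than in LAMS (-0.26 ± 0.08, adjusted p 0.032 in limma) and higher in HAMSB than in HAMS (0.31 ± 0.08, adjusted p 0.0064). Tlr9, the DNA sensor of B cells and plasmacytoid dendritic cells, was lower in HAMSB than in HAMS (-0.95 ± 0.33, adjusted p 0.0403), and -0.21 (adjusted p 0.225) with the lymphoid level in the model. Traf6 was lower as well (-0.29 ± 0.08, adjusted p 0.0174), and lost the call without HAMS replicate 2 (0.0685). The mean of 10 tested plasmacytoid dendritic cell genes was 7.15 ± 0.44 in HAMS and between 6.69 and 6.84 in the other diets. This list shares Bst2, Tlr7, Tlr9 and Irf8 with the interferon lists, Spib with the B cell list and Cd4 with a list of T and NK cells. No probe set was annotated with Siglech, a defining marker of plasmacytoid dendritic cells. The mean of 13 tested T and NK cell genes was highest in HAMS too, at 6.86 ± 0.98 against 5.80 to 6.05 in the other diets. The mean of 16 macrophage genes was 7.18 ± 0.18 in HAMS and 7.24 to 7.43 elsewhere.

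Of the signalling genes, Jak2 was lower in HAMSB than in LAMS (-0.65 ± 0.15, adjusted p 0.0136 in limma), and Jak1 was lower in HAMSB than in HAMS (-0.61 ± 0.20, adjusted p 0.03). The kinases sit on the interferon receptors. With the name style as a block Jak2 was -0.40 (adjusted p 0.0546), and with the lymphoid level Jak1 was -0.22 (adjusted p 0.321). Of the inhibitors, Socs1, which blocks JAK kinases, was at 6.70 ± 0.28 in HAMS and 6.67 ± 0.28 in HAMSB, against 6.29 ± 0.17 in LAMS (differences of 0.41 ± 0.12 and 0.38 ± 0.12, adjusted p 0.0262 and 0.0456). Both Socs1 calls were lost with the name style as a block (adjusted p 0.205 and 0.307). Isg20 and Nlrx1 of the same list were higher in HAMSB than in HAMS (0.45 ± 0.11 and 0.35 ± 0.11, adjusted p 0.00682 and 0.0258), and Isg20, an exonuclease that degrades viral RNA, is an effector rather than an inhibitor. Upp1, a uridine phosphorylase in the interferon gamma list, was also higher (0.42 ± 0.12, adjusted p 0.0142).

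In HAW minus HAMS the 8 called genes were Irf2 (-0.45 ± 0.13), Bst2 (-0.52 ± 0.16) and Socs1 (-0.36 ± 0.12), which were lower, and Mavs (0.30 ± 0.08), Tlr3 (0.63 ± 0.21), Apobec1 (0.61 ± 0.21), Sectm1b (0.74 ± 0.26) and Nlrx1 (0.33 ± 0.11), which were higher, with adjusted p of 0.0159 to 0.0477 in limma. All 8 calls were lost with the lymphoid level as a covariate, with differences that kept 55% to 97% of their size. Socs1, at -0.35 (adjusted p 0.0792), and Mavs, at 0.26 (0.0568), were about as large as before. Of the 13 named calls in HAMSB minus HAMS, those of Irf2 and Ifitm3 held under every setting and with any rat left out, and 9 were lost with the lymphoid level. The differences of those 9 kept 22% to 107% of their size, and Oasl (0.76), Mavs (0.27) and Traf6 (-0.25) were about as large as before, while Tlr9 (-0.21) and Jak1 (-0.22) were much smaller. Of the 6 calls in HAMS minus LAMS and the 3 in HAMSB minus LAMS, none held under every setting. The part of the lymphoid level and of the name style in the calls that they ended was not tested further.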

How the data were processed

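RNA of 43 rats, 1 array each, was measured. The authors deposited log2 expression values for 29214 probe sets, and the submitters' processing notes name RMA as the tool. RMA corrects background, gives the arrays a shared distribution and combines probes, which can compress low signals. Its version and the genome build are not given in the sources used here. The values ran from 1.31 to 14.05. Arrays have no read depth, and the precision is set by the number of rats and by how far signals stand above background.

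Symbols come from the GEO platform annotation, under which 15310 probe sets had 1 symbol, 323 several and 13581 none. For each of 14506 symbols the probe set with the highest mean was taken, and 10934 genes were kept whose median reached the 25th percentile of probe sets with a symbol, 4.75. A limma 3.58.1 fit (R 4.3.3; lmFit, eBayes) gave each diet a mean, with two-sided tests and Benjamini-Hochberg adjustment over the genes at 0.05; the same fit was tested on simulated data. The labels describe separate rats, and the p-values measure the spread between them. Correlations were computed in Python 3.11.15 on deviations from diet means, with rats permuted within diets. Those within the 18 rats above a level of 6 used the values themselves and had no test. Figures were drawn with matplotlib 3.10.9. Named pathway genes were up to 4 per list with the smallest p among those that passed; the nearest genes were those with the highest mean r. The members and all lists were chosen with earlier results of these data known. Tried alternatives were no or a stricter filter, another prior, array weights, the compared diets alone, centred arrays, the name style or replicate number as a block, the lymphoid level or array spread as a covariate, and leaving out each array. Tests of name style, level and spread beside diet, the comparison HAMSB minus CON, the correlations between members, within diet and within diet and name style, the level of 6 and leaving out 3 rats were added after seeing the data.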

Additional observations from a re-analysis of the deposited data

Results flagged for a closer look

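In 12 of 54 sets of 1 gene in 1 diet, the highest rat stood apart from the rest by a gap that took up most of the range, beyond Dixon's 95% critical value; chance marks about 1 set in 20. All 12 are high values, and 11 of them come from 3 rats. LAMS replicate 2 was marked in Isg15 (7.65, the next rat of the diet at 5.78), Mx2 (8.64, next 5.56), Ifit3 (4.96, next 4.08), Irf7 (8.57, next 6.22) and Usp18 (5.7, next 4.0). CON replicate 5 was marked in Isg15 (6.71, next 5.73), Mx1 (7.75, next 4.54), Mx2 (7.79, next 5.66) and Usp18 (6.46, next 4.0). LAW replicate 1 was marked in Mx2 (7.12, next 5.78) and Irf7 (7.26, next 6.23). The remaining value is Oas1a in HAMS replicate 1 (7.63, next 6.31); without this rat Oas1a was called in HAMSB minus HAMS (adjusted p 0.00873 in limma). No Irf1 or Ifi27 value was marked. These genes are correlated, so the marks are not independent of one another.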

How the results depend on the processing

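The count of members called was 0 under every setting tried for every comparison except HAMSB minus HAMS and the F test, where it was 1, Oas1a, with array weights and ranged from 0 to 1 over leaving out each array. Oas1a gained the call without HAMS replicate 1 in both (adjusted p 0.00873 and 0.0463) and without HAMSB replicate 9 in HAMSB minus HAMS, and its difference there ran from 0.20, with name style and lymphoid level, to 0.91. The members under the filter were followed in the unfiltered fit alone. The stricter filter, at a median of 6.43, kept only Irf1 and Ifi27 of the members. A call of any other member, Oas1a among them, was therefore not possible under that setting. In 327 alternative values, those of the stricter filter included, the member counts differed from the main ones 5 times. Of 18 alternative values for the correlation with the lymphoid level, Mx2 with diet and name style subtracted, 0.42, was the only one to change its call.

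The counts of the other 102 pathway genes moved far more, and the cause was not tested. With array weights they were 52 in the F test, 31 in HAMS minus LAMS, 24 in HAMSB minus LAMS, 43 in HAMSB minus HAMS, 40 in HAW minus HAMS, 6 in the contrast of amylose effects and 2 in the mean of the 5 diets minus CON, against 15, 6, 3, 15, 8, 0 and 0. With the name style as a block they were 8 in the F test, 0 in HAMSB minus LAMS, 11 in HAMS minus LAMS, 3 in the contrast and 44 in HAMSB minus HAMS. With the lymphoid level they were 4 in HAMSB minus HAMS, 0 in HAW minus HAMS and 6 in HAMSB minus LAMS, and with both terms 6 in HAMSB minus HAMS, 3 in the F test, 1 in HAW minus HAMS, 3 in the contrast and 3 in HAMS minus LAMS. With array spread they were 24 in HAMSB minus HAMS, 8 in the F test, 1 in HAW minus HAMS and 1 in HAMS minus LAMS. The compared diets alone gave 1 in HAMS minus LAMS and 0 in HAW minus HAMS, where fewer rats enter the fit. Centred arrays gave 24 in HAMSB minus HAMS, and no filter gave 5 in HAW minus HAMS. Leaving out each array gave 7 to 23 in the F test, 2 to 20 in HAMS minus LAMS, 1 to 7 in HAMSB minus LAMS, 9 to 32 in HAMSB minus HAMS, 1 to 19 in HAW minus HAMS and 0 to 3 in the contrast. Tlr3 in HAW minus HAMS turned from 0.63 to -0.13 (adjusted p 0.812 in limma) with name style and lymphoid level together.

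The counts over all genes, from which the background shares come, moved too, and not always in the direction of the pathway counts. With the name style as a block they were 945 in HAMS minus LAMS (main 1545), where the pathway count rose, and 3334 in HAMSB minus HAMS. Centred arrays gave 1632 in HAMSB minus HAMS (main 1821), where the pathway count rose as well. The lowest and highest over the settings were 558 and 7524 in the F test (main 3355), 6 and 4059 in HAMS minus LAMS (1545), 327 and 3724 in HAMSB minus LAMS (741), 306 and 3791 in HAMSB minus HAMS (1821), 23 and 4742 in HAW minus HAMS (1458), 0 and 742 in the mean of the 5 diets minus CON (157), 2 and 1119 in the contrast (3) and 0 and 234 in LAMS minus CON (0), the highest always with array weights. Leaving out each array gave 2513 to 4334 in the F test, 614 to 2425 in HAMS minus LAMS, 539 to 3141 in HAW minus HAMS, 923 to 2868 in HAMSB minus HAMS, 0 to 221 in the mean of the 5 diets minus CON, 1 to 219 in the contrast and 158, without LAMS replicate 2, to 1384 in HAMSB minus LAMS.

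Replicate numbers are shared between diets. Over 15 pairs of diets, 37 of 94 correlations of same-numbered rats were over 0.1, and they ran from -0.79 to 0.64. In 0 of the 15 pairs were all of them over 0.1. That rule is so strict that it cannot show whether rats of the same number deviated together. With the replicate block the pathway counts were 8 in the F test, 2 in HAMS minus LAMS and 5 in HAW minus HAMS, and Oas1a in HAMSB minus HAMS was 0.75 (adjusted p 0.0521 in limma). Each member has 1 probe set, so the planned comparison with other probe sets gave no value.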
